A study of Mus musculus with 8 samples.

Results

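The comparison described here is that of *Tut7*-/- with wild-type bone marrow-derived macrophages (BMDMs) that had received no lipopolysaccharide (LPS), and it asks how the loss of TUT7 bears on the transcriptome of resting cells. It uses the raw read counts of 4 of the 8 RNA sequencing libraries of the series, 2 untreated *Tut7*-/- and 2 untreated wild-type libraries, and all 24539 gene rows. The other 4 libraries came from the same genotypes after 4 h of LPS and are used only for the spread between libraries and for a further set of genotype differences. Marrow of 7-week-old male C57BL/6 mice was grown for 7 days in medium with 20% L929 cell-conditioned medium and then overnight with 10 ng/ml M-CSF. The *Tut7*-/- line was made with CRISPR/Cas9 guides in introns near both ends of the gene, so every cell of these cultures lacked it. The labels give the agent of the 4 libraries as Ctrl, although their treatment protocol carries the same line on LPS as all other samples. Whether the 2 libraries of a genotype stem from different animals is not stated, so the p-values reflect variation among these libraries only, and that variation may be technical.

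TUT7, encoded by the gene listed as *Zcchc6*, is a terminal uridyltransferase that adds uridines to the 3′ ends of RNAs, and together with its relative TUT4 it marks mRNAs with short poly(A) tails, replication-dependent histone mRNAs and microRNA precursors for decay or maturation. BMDMs are cultured phagocytes that depend on M-CSF. They clear dying cells and lipids, break down what they engulf in lysosomes, and answer bacterial products such as LPS through Toll-like receptors (TLRs).

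The 4 libraries held 6627533 to 9025504 counts. Levels are given as CPM, the counts of a gene scaled by TMM to a common library total, which are not corrected for gene length and are compared only between libraries. Of the 24539 genes, 11501 had enough counts to be tested by edgeR's quasi-likelihood test, and genes with a p under 0.05 after Benjamini-Hochberg adjustment over those genes are described as called. Fold changes are on the log2 scale, *Tut7*-/- against wild-type, with their standard errors (SE). The macrophage markers *Csf1r*, *Adgre1*, *Cd68* and *Lyz2* were high in all 4 libraries, with *Csf1r*, the M-CSF receptor, at 2658 and 3609 CPM in wild-type and 5576 and 4732 CPM in *Tut7*-/- cells. Of 13 T and NK cell genes 8 were at 0 in all 4 libraries, as were 8 of 12 erythroid, 6 of 12 B cell, 8 of 19 neutrophil, 5 of 10 mast cell and 2 of 9 platelet genes. Of all 24539 genes, 9832 were at 0 in all 4, so these counts alone say little about the absence of a cell type. The B cell list summed to 107 and 86.5 CPM in the wild-type and to 169 and 160 CPM in the *Tut7*-/- libraries, the platelet list to 132 and 121 against 188 and 157 CPM, and the neutrophil list to 69.1 and 87.8 against 91.4 and 102 CPM. The part of such cells in the results was not tested.

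The targeted gene was nearly absent from the *Tut7*-/- libraries. *Zcchc6* (chromosome 13, 59771876 to 59823169, mm10) stood at 47.0 and 53.9 CPM in wild-type and at 2.09 and 2.04 CPM in *Tut7*-/- cells, from 427 and 615 against 17 and 23 counts. The libraries of both genotypes thus matched their labels, and the fall by 4.60 on the log2 scale (SE 0.26, adjusted p = 1.7e-07) was called under all 19 alternative settings. *Etohd2* (59769966 to 59773680), whose span overlaps that of *Zcchc6*, was at 15.3 and 10.7 CPM in wild-type and at 2.34 and 2.83 CPM in *Tut7*-/- cells, lower by -2.31 (SE 0.32, adjusted p = 0.00035). Reads of the shared stretch cannot be assigned to either gene because the strand of the counting is not stated. *Isca1*, the neighbour on the other side of *Etohd2*, which encodes an iron-sulfur cluster assembly protein, was at 37.2 and 28.5 against 39.8 and 38.3 CPM and was not called (0.25, SE 0.23, adjusted p = 0.40).

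Across the transcriptome, 4259 genes (37% of those tested) were called, 1707 higher (14.8%) and 2552 lower (22.2%) in *Tut7*-/- cells. The genes that fell moved farther than those that rose, with a median fold change of -1.35 against 0.82 on the log2 scale. An absolute log2 fold change over 1 was reached by 2007 of the lower and 342 of the higher genes. The split depended on the scaling: without TMM, by library size only, the calls were 322 higher and 2980 lower, with the median of all genes at -0.28 rather than 0.01. Read from the 4 untreated libraries alone the calls were 502 higher and 2089 lower. They were 436 and 1303 without wild-type replicate 1, 896 and 1889 without wild-type replicate 2, 976 and 2045 without *Tut7*-/- replicate 1 and 2968 and 3382 without *Tut7*-/- replicate 2, and between 1054 and 1095 rose when an LPS-treated library was left out. At this background the plot of fold changes against level shows a broad shift on both sides of 0, in which single genes such as *Acp5*, *Mfge8*, *Itgal*, *Ccr2* and *Hsp90b1* stand out. Counts of list members given below for other settings are to be read beside the numbers for all genes given here.

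**Figure D1:**
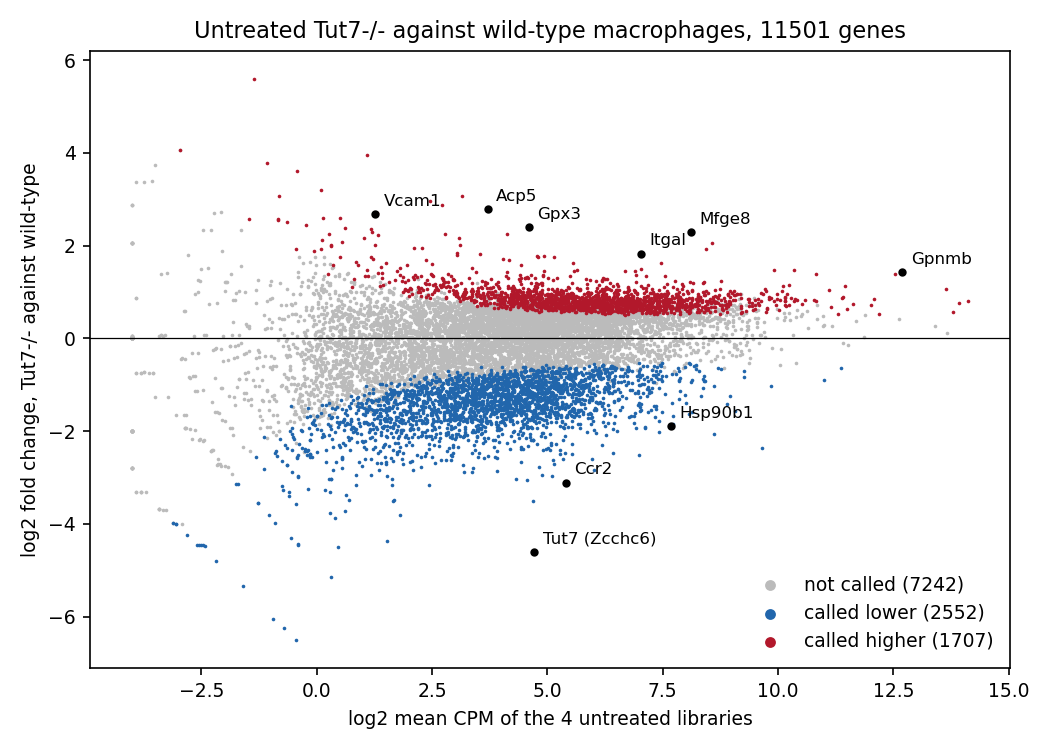
Log2 fold change of *Tut7*-/- against wild-type BMDMs without LPS (vertical) against the log2 mean CPM of the 4 untreated libraries (horizontal, the lowest means drawn at the left edge), 1 point per gene for 11501 genes. Red and blue points are the 1707 genes called higher and the 2552 called lower, and *Tut7* (*Zcchc6*) lies at -4.60.

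The direction of change followed the base composition of the transcripts. In the tenth of the genes with the lowest GC content 65.4% were called lower and 0.437% higher, and in the tenth with the highest GC content 1.31% were called lower and 41.2% higher. Genes that rose had a median GC content of 55.6% and a median transcript length of 2.54 kb, and genes that fell 43.4% and 4.04 kb, against 49.6% and 2.88 kb for all tested genes. The libraries themselves differed in this respect: weighted by counts, the GC content was 50.5% and 50.8% in the wild-type and 52.3% and 52.0% in the *Tut7*-/- libraries. *Tut7*-/- replicate 1 also stood farther from the wild-type libraries than replicate 2 did, with Pearson correlations of log2 CPM of 0.904 and 0.905 against 0.942 and 0.959, and it was the more extreme of the pair for 89.3% of the genes called higher and 81.9% of those called lower. Base composition and genotype cannot be told apart in these libraries. The gene lists below, and the genes whose call or size depended on it, are therefore given also after a correction for length and GC content, in which a smooth trend with both properties was removed from each library. That correction left 1668 genes called higher (14.6%) and 1184 called lower (10.4%), of which 723 and 923 were called in the same direction without it. The 14.6% and 10.4% are the shares to set beside corrected counts of list members.

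**Figure D2:**
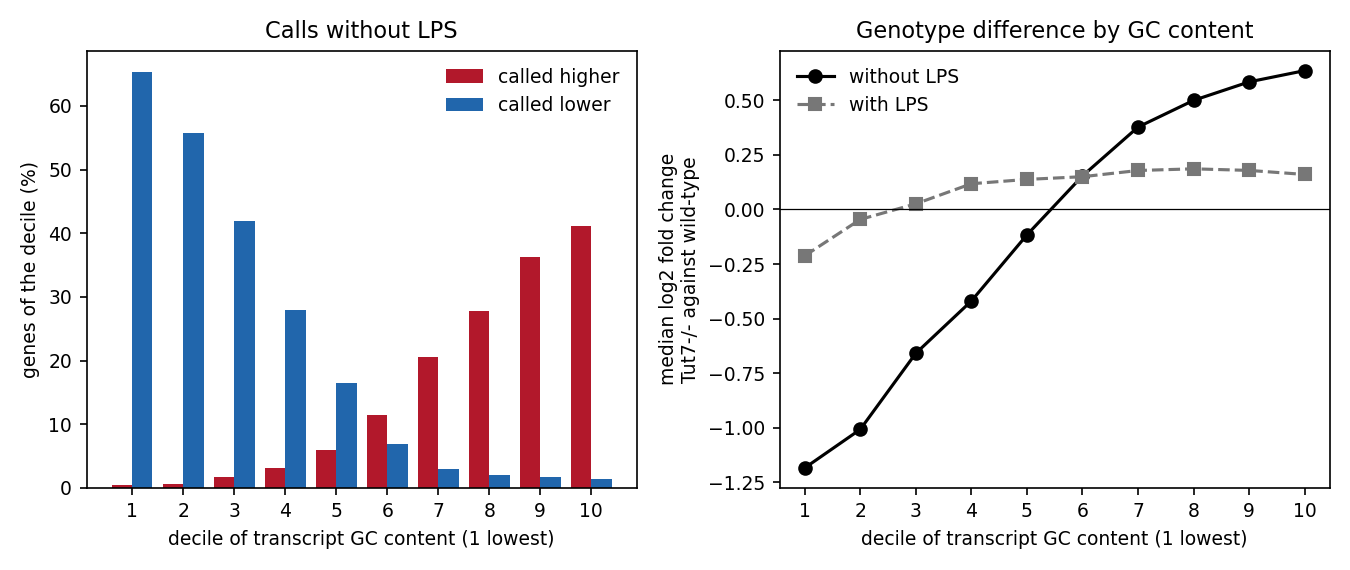
Left, share of genes (%) called higher (red) and lower (blue) without LPS in each decile of transcript GC content. Right, median log2 fold change of *Tut7*-/- against wild-type in the same deciles, without LPS (circles), where it ran from -1.18 to 0.64, and with LPS (squares), where it ran from -0.21 to 0.16 between the lowest and the highest decile.

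The 14 genes described for the largest rise, among called genes with a mean of at least 10 CPM and no overlap between the genotypes (68.6% of all tested genes do not overlap), included genes of phagocytosis and of lipid transport. *Acp5*, which encodes tartrate-resistant acid phosphatase, went from 3.74 and 2.89 CPM in wild-type to 27.0 and 18.8 CPM in *Tut7*-/- cells (2.79, SE 0.28, adjusted p = 0.00011). *Acp5* is best known from osteoclasts. Of 9 tested osteoclast genes *Acp5* and *Mmp9* rose (22.2%) and none fell (0%), against 14.8% and 22.2% of all genes. *Ctsk* (-0.03), *Nfatc1* (0.15) and *Dcstamp* (-0.37) were not called. *Mfge8*, a bridging protein that tethers apoptotic cells to phagocytes, was at 104 and 85.0 CPM against 542 and 385 CPM, a 4.92-fold difference (2.30, SE 0.24, adjusted p = 0.00011). *Folr2*, a folate receptor of tissue-resident macrophages, was at 151 and 140 CPM against 780 and 442 CPM (2.07, SE 0.25, adjusted p = 0.00025). For these genes both *Tut7*-/- libraries lay far above both wild-type libraries, and replicate 1 was the higher of the pair.

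*Gpx3*, a secreted glutathione peroxidase, was at 9.02 and 6.40 against 53.2 and 28.1 CPM (2.40, SE 0.37, adjusted p = 0.0006). *Fabp5*, a fatty acid-binding protein, was at 150 and 139 against 686 and 410 CPM (1.92, SE 0.25, adjusted p = 0.00027). *Itgal*, the alpha chain of the integrin LFA-1, was at 43.9 and 70.3 against 216 and 191 CPM (1.83, SE 0.24, adjusted p = 0.0003). In *Itgal* the *Tut7*-/- libraries were close to each other and the wild-type libraries differed more. *Cmklr1*, the chemerin receptor, rose by 1.81, *Gdf3*, a ligand of the TGF-beta family, by 1.78, *Adcy3*, an adenylate cyclase, by 1.75, and *Slc46a1*, the proton-coupled folate transporter, by 1.71. *Pianp* (2.26), *B430306N03Rik* (1.78), *Aldh1l1*, a folate-metabolizing dehydrogenase (1.69), and *Apoc2* (1.63) were the others. All 14 were called under each of the 19 alternatives, and after the correction for length and GC content their fold changes lay between 0.82 and 2.13.

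The 15 genes with the largest fall were led by *Zcchc6* and included cell surface proteins of myeloid cells and proteins of RNA processing. *Ccr2*, the receptor through which monocytes follow CCL2, was at 82.2 and 69.2 CPM in wild-type and at 8.48 and 8.94 CPM in *Tut7*-/- cells, 8.66-fold lower (-3.11, SE 0.26, adjusted p = 2e-05). *Adgre4*, an adhesion G protein-coupled receptor of myeloid cells, was at 49.7 and 48.3 against 7.62 and 6.73 CPM (-2.77, SE 0.28, adjusted p = 0.00011). Both genes had nearly the same level in the 2 libraries of each genotype. *Ms4a4a*, a membrane protein of macrophages, was at 65.0 and 56.6 against 2.21 and 12.8 CPM (-2.96, SE 0.45, adjusted p = 0.00054), with *Tut7*-/- replicate 1 far below replicate 2.

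Among the genes of RNA processing, *Pnisr*, an SR-related protein of nuclear speckles, was at 52.3 and 43.4 against 1.35 and 6.64 CPM (-3.51, SE 0.43, adjusted p = 0.00025). *Pnn*, a splicing-associated nuclear protein, was at 44.2 and 40 against 1.72 and 8.06 CPM (-3.05, SE 0.42, adjusted p = 0.00037). *Hnrnph1*, a splicing regulator that binds G-rich RNA, was at 125 and 101 against 8.48 and 22.6 CPM (-2.84, SE 0.34, adjusted p = 0.00025). In these genes *Tut7*-/- replicate 1 had the lowest level of the 4 libraries. The SR-related *Srek1* was at 18.2 and 18.1 against 1.84 and 2.92 CPM (-2.89). *Paxbp1* (-3.03), *Mdm4*, an inhibitor of p53 (-2.94), *Pmaip1*, which encodes the pro-apoptotic protein NOXA (-2.87), *Taf1*, the largest subunit of TFIID (-2.79), *Pde3b*, a cyclic nucleotide phosphodiesterase (-2.71), *Impact* (-2.66) and *Zc3h7a*, a zinc finger protein (-2.63), made up the rest. All 15 were called under each of the 19 alternatives, with fold changes of -3.83 to -1.66 after the correction. *Tut7*-/- replicate 1 was the more extreme library of its pair in 12 of the 14 genes that rose and in 13 of the 15 that fell.

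**Figure D3:**
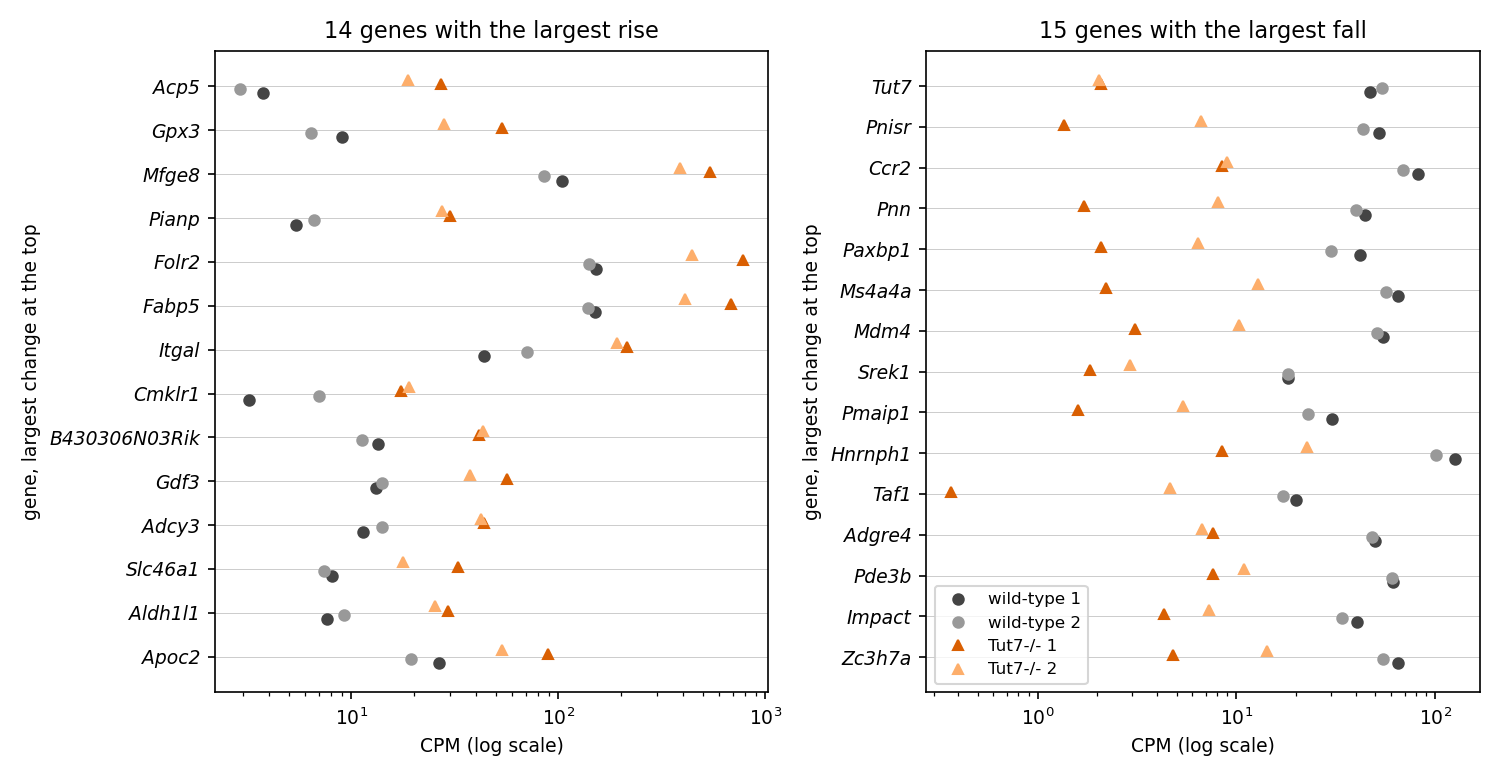
Level in CPM (log axis) of 14 genes with the largest rise (left) and 15 with the largest fall (right) in each untreated library, circles for wild-type and triangles for *Tut7*-/-. Every triangle lies beyond both circles of its gene, by the rule that chose the genes, and the darker triangle, *Tut7*-/- replicate 1, is the more extreme of the pair in 12 of 14 genes on the left and 13 of 15 on the right.

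Most enzymes that act on RNA 3′ ends beside TUT7 were lower or not called. Of 12 tested genes of terminal nucleotidyltransferases and their partners, 6 fell (50%), *Zcchc6* among them, 1 rose (8.33%) and 5 were not called. The shares of all genes were 22.2% and 14.8%, and the median was -0.84 against 0.01 for all genes. After the correction 2 were higher and 2 lower, where 14.6% and 10.4% of all genes were. The corrected median was 0.012 against 0.039 for all genes. *Zcchc11*, which encodes TUT4, the closest relative of TUT7, was at 15.6 and 15.2 CPM in wild-type and at 9.10 and 13.0 CPM in *Tut7*-/- cells. It was not called (-0.47, SE 0.26, adjusted p = 0.16), and after the correction its sign turned and it was called higher (0.72, adjusted p = 0.012). It passed in 2 of 19 alternatives, with fold changes from -0.82 to 0.72, and was above 0 only with the correction. *Papd4*, which encodes the cytoplasmic poly(A) polymerase GLD2, was at 37.5 and 28.9 against 13.5 and 12.8 CPM (-1.34, SE 0.22, adjusted p = 0.00086), and remained called after the correction (-0.45, adjusted p = 0.041). *Papola*, the main nuclear poly(A) polymerase, was at 82.3 and 77.1 against 25.1 and 37.7 CPM (-1.34, SE 0.23, adjusted p = 0.001). *Papola*, *Papd5* (-1.25), *Papolg* (-1.45) and *Fam46a* (-1.0) were not called after the correction. *Dis3l2*, the exonuclease that degrades uridylated RNA, was the member that rose, from 15.3 and 16.8 CPM to 29.6 and 23.3 CPM (0.72, SE 0.24, adjusted p = 0.033), and it passed in 7 of 19 alternatives, the corrected fit among them (1.73, adjusted p = 8e-05), and not without either wild-type library or without *Tut7*-/- replicate 1. Leaving out wild-type replicate 1 gave 4 lower and none higher.

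Regnase-1 is an endonuclease that cuts stem-loops in the mRNAs of cytokines, Roquin-1 and Roquin-2 bind related stem-loops, and MALT1 is a protease that cleaves both kinds of protein. *Zc3h12a*, which encodes Regnase-1, was at 24.0 and 31.5 CPM in wild-type and at 32.1 and 38.8 CPM in *Tut7*-/- cells. Both *Tut7*-/- libraries lay above both wild-type libraries, narrowly at 32.1 against 31.5 CPM, as they did for 33.1% of all tested genes. The difference was not called (0.35, SE 0.23, adjusted p = 0.22), in none of the 19 alternatives, and was -0.15 after the correction. The Roquin genes were lower, *Rc3h1* at 44.1 and 32.4 against 9.22 and 13.3 CPM (-1.75, SE 0.26, adjusted p = 0.0005) and *Rc3h2* at 23.3 and 16.8 against 6.27 and 5.49 CPM (-1.77, SE 0.31, adjusted p = 0.00099). *Malt1* fell by 1.82 on the log2 scale (SE 0.43, adjusted p = 0.0061), from 14.2 and 12.4 to 1.11 and 6.02 CPM, and *Zc3h12c* was lower by -1.38 (adjusted p = 0.014). *Malt1* was not called without wild-type replicate 1, and *Zc3h12c* not without wild-type replicate 2 or *Tut7*-/- replicate 1. Of the 7 tested genes of this group 4 fell (57.1%) and none rose, against 22.2% and 14.8% of all genes. The median was -1.38, and none was called after the correction, where 14.6% of all genes were higher and 10.4% lower.

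Of 15 tested mRNAs known as targets of Regnase-1, 8 fell (53.3%) and none rose, against 22.2% and 14.8% of all genes. The median was -1.29, and after the correction 4 were lower and 1 higher, where 10.4% and 14.6% of all genes were. The number lower was 5 without wild-type replicate 1, without wild-type replicate 2 or without *Tut7*-/- replicate 1, and 2 from the 4 untreated libraries alone. Several of these genes hold few counts in resting cells. *Csf1*, the M-CSF gene, was at 11.8 and 13.6 CPM in wild-type and at 4.42 and 5.85 CPM in *Tut7*-/- cells (-1.29, SE 0.24, adjusted p = 0.0015), and the correction moved it to -1.53. *Nfkbiz*, which encodes a nuclear regulator of NF-κB target genes, was at 31.6 and 37.4 against 16.3 and 23.2 CPM (-0.80, SE 0.23, adjusted p = 0.015), was -0.76 after the correction, and was not called from the 4 untreated libraries alone or without wild-type replicate 2. *Cxcl2*, a neutrophil chemokine, was at 4.40 and 3.42 against 0.98 and 2.04 CPM (-1.30, adjusted p = 0.011), and lost its call with the correction (-0.85, adjusted p = 0.057) and without wild-type replicate 1 or *Tut7*-/- replicate 1. *Il6* (-2.80), *Il12b* (0.87) and *Il1b* (-0.44) were not called.

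Of 56 tested genes of mRNA deadenylation, decapping and decay 18 fell (32.1%) and 5 rose (8.93%), against 22.2% and 14.8% of all genes. The median was -0.09, and after the correction 7 were called in each direction, where 14.6% of all genes were higher and 10.4% lower. *Smg1*, the kinase of nonsense-mediated decay, was at 70.9 and 71.5 CPM in wild-type and at 5.29 and 19.7 CPM in *Tut7*-/- cells (-2.48, SE 0.40, adjusted p = 0.00068). *Upf3b*, a factor of the same pathway, was at 11.3 and 6.40 against 1.11 and 1.95 CPM (-2.48, SE 0.41, adjusted p = 0.00084). Both kept their call after the correction, at -1.25 and -1.67. The exonuclease *Xrn1* (-1.55) and the decapping enzyme *Dcp2* (-1.48) did not, at -0.08 and -0.17. In a separate list of AU-rich element binding proteins 2 of 11 tested genes rose (18.2%) and 3 fell (27.3%), against 14.8% and 22.2% of all genes. After the correction 2 were higher and 4 lower, where 14.6% and 10.4% of all genes were. Its member *Tia1*, which encodes a stress granule protein that binds U-rich RNA, was at 15.1 and 13.2 against 2.34 and 3.10 CPM (-2.35, SE 0.33, adjusted p = 0.0004). The decay list had 12 lower and none higher once wild-type replicate 1 was left out.

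Genes of cholesterol efflux and targets of the liver X receptors (LXRs), nuclear receptors that sense oxidized sterols, were mostly higher. Of 22 tested members 15 rose, 1 fell and 6 were not called, with a median of 0.83. The shares, 15 of 22 against 14.8% of all genes, were little changed by the correction, with 14 higher and none lower and a median of 0.66, and 7 rose without wild-type replicate 1 and 8 in the 4 untreated libraries alone. Without TMM scaling 7 members of the list rose and 1 fell, with a median of 0.50. In that setting 322 of all 11501 tested genes rose and 2980 fell, with a median of -0.28. *Apoe*, the apolipoprotein that carries lipid out of macrophages, was at 3698 and 2944 CPM in wild-type and at 9996 and 7302 CPM in *Tut7*-/- cells, 2.60-fold higher (1.38, SE 0.22, adjusted p = 0.00059). *Gpnmb*, a transmembrane glycoprotein of lipid-laden macrophages, was at 3358 and 3833 against 10626 and 8745 CPM, 2.69-fold higher (1.43, SE 0.20, adjusted p = 0.00037). For both genes the *Tut7*-/- libraries lay above the wild-type libraries, and the values after the correction were 0.66 and 1.61. *Apoc2*, the activator of lipoprotein lipase, was at 26.6 and 19.4 against 88.7 and 53.7 CPM.

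*Srebf1*, the LXR-dependent regulator of fatty acid synthesis, was at 56.7 and 65.5 against 132 and 111 CPM (0.99, SE 0.21, adjusted p = 0.0036). *Scd1*, which desaturates fatty acids, was at 2.09 and 1.49 against 5.78 and 7.97 CPM (1.96, SE 0.44, adjusted p = 0.0045), and it lost its call without wild-type replicate 2. The receptor genes themselves, *Nr1h3* (0.84) and *Nr1h2* (0.84), rose less. The member that fell was *Abca1*, which encodes the transporter that loads cholesterol onto apolipoprotein A-I, at 189 and 165 against 69.2 and 123 CPM (-0.88, SE 0.25, adjusted p = 0.015). The change of *Abca1* was -0.04 after the correction, and it was not called without wild-type replicate 1 or without *Tut7*-/- replicate 1.

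Of 24 tested genes of cholesterol synthesis and uptake 8 rose (33.3%) and 2 fell (8.33%), against 14.8% and 22.2% of all genes. The median was 0.38, and after the correction 9 rose and none fell, where 14.6% and 10.4% of all genes did. *Srebf2*, the master regulator of the pathway, was at 53.5 and 83.2 CPM in wild-type and at 187 and 164 CPM in *Tut7*-/- cells (1.36, SE 0.23, adjusted p = 0.00088). *Dhcr7*, a reductase late in the pathway, was at 14.6 and 19.9 against 41.1 and 32.6 CPM (1.09), and lost its call without wild-type replicate 1. For both genes the *Tut7*-/- libraries lay above the wild-type libraries, whereas the early enzymes *Hmgcs1* (-1.18, adjusted p = 0.012) and *Idi1* (-1.61, adjusted p = 0.017) were lower before and not called after the correction. Leaving out wild-type replicate 1, wild-type replicate 2 or *Tut7*-/- replicate 1 left 4 members higher in each case.

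Lysosomal genes were another group in which more members rose than fell. Of 40 tested members 18 rose (45%), 3 fell (7.5%) and 19 were not called, against 14.8% higher and 22.2% lower of all genes. The median was 0.55. After the correction 20 rose and 1 fell, where 14.6% and 10.4% of all genes did, with a median of 0.37 for the list. *Ctsd*, the aspartic protease cathepsin D, was at 8994 and 7510 CPM in wild-type and at 20974 and 13377 CPM in *Tut7*-/- cells, 2.08-fold higher (1.06, SE 0.23, adjusted p = 0.0033), and the correction reduced this to 0.46. *Man2b1*, the lysosomal alpha-mannosidase, was at 628 and 863 against 1798 and 1537 CPM (1.16, SE 0.22, adjusted p = 0.0015) and was 0.98 after the correction. The acid hydrolase genes *Glb1* (0.86), *Hexa* (0.83) and *Gusb* (0.72) also rose. *Mitf*, a transcription factor of the family that controls lysosomal genes, went the other way, at 47.8 and 44.4 against 13.8 and 18.6 CPM (-1.50, SE 0.25, adjusted p = 0.00075), while its relative *Tfe3* rose (0.70) and *Tfeb* was not called (0.53). Without TMM scaling 9 members were higher and 6 lower, where 322 and 2980 of all 11501 tested genes were. The number that rose was 7 without wild-type replicate 1, 10 without wild-type replicate 2, 14 without *Tut7*-/- replicate 1 and 28 without *Tut7*-/- replicate 2, and 4 from the 4 untreated libraries alone.

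The transcription factors of that family bind a palindromic promoter element, and the promoters of the list were searched for its core, TCACGTGA, which reads the same on both strands. In RefSeq promoters (GRCm38.p6, 250 bases before to 50 after the start) the core was present in 6 of 30 lysosomal genes (20%) and in 215 of 9262 tested genes (2.32%). Among members with a promoter in the table it was found in 3 of 12 that rose, 2 of 16 that were not called and 1 of 2 that fell, so that genes with the element lay on both sides. The 30-base windows printed here, on the strand of each gene, show the core in capitals in the 3 members that rose, for *Ctsa* the first of 2 matches, and in the 1 that fell. A match describes the letters of the promoter and not the binding of a factor.
Ctsd (chr7:142387908-142387937, minus strand): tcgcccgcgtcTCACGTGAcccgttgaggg
Ctsa (chr2:164833749-164833778, plus strand): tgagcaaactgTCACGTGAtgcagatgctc
Mcoln1 (chr8:3500462-3500491, plus strand): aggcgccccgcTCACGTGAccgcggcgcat
Atp6v1a (chr16:44139373-44139402, minus strand): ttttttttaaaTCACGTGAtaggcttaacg

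*Ctsa*, which encodes the protective protein cathepsin A, was at 997 and 894 CPM in wild-type and at 1979 and 1407 CPM in *Tut7*-/- cells (0.84, SE 0.21, adjusted p = 0.0084), and was not called without wild-type replicate 2. *Mcoln1*, a lysosomal calcium channel, was at 46.9 and 51.7 against 81.9 and 71.6 CPM (0.64, SE 0.21, adjusted p = 0.028), and passed in 7 of 19 alternatives, not without either wild-type library or without *Tut7*-/- replicate 1. *Atp6v1a*, the catalytic subunit of the proton pump, was at 446 and 417 against 201 and 268 CPM (-0.88, SE 0.21, adjusted p = 0.0065), and its change was -0.08 after the correction.

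The macrophage identity list had 29 tested genes, of which 12 rose (41.4%) and 5 fell (17.2%), against 14.8% and 22.2% of all genes. The median was 0.49, and 12 rose and 4 fell after the correction, where 14.6% and 10.4% of all genes did. *Cebpa*, a transcription factor of the myeloid lineage, was at 139 and 120 CPM in wild-type and at 360 and 252 CPM in *Tut7*-/- cells (1.24, SE 0.24, adjusted p = 0.002). *Gas6*, a bridging ligand for apoptotic cells, was at 358 and 371 against 749 and 653 CPM (0.94, SE 0.20, adjusted p = 0.003). *Trem2*, a lipid-sensing receptor, was at 925 and 670 against 1970 and 1118 CPM (0.95, SE 0.26, adjusted p = 0.012), and was not called without wild-type replicate 2 or without *Tut7*-/- replicate 1. The 5 members that fell were *Maf*, *Mrc1*, *Cd36*, *Cd163* and *Axl*. *Mrc1*, the mannose receptor, was at 233 and 151 against 54.6 and 75.3 CPM (-1.56, SE 0.25, adjusted p = 0.00071), and *Cd36*, which takes up oxidized lipoproteins, was at 275 and 213 against 86.8 and 82.5 CPM (-1.53, SE 0.23, adjusted p = 0.00047). After the correction these became -0.49 (adjusted p = 0.049) and -0.41 (adjusted p = 0.045). *Maf*, a transcription factor of mature macrophages, was at 311 and 292 against 65.5 and 162 CPM (-1.40, SE 0.33, adjusted p = 0.0055) and at -1.06 after the correction. The number that rose was 5 without wild-type replicate 1, 4 without wild-type replicate 2 and 6 without *Tut7*-/- replicate 1, and 2 without TMM scaling.

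The genes of the C1q subunits, the recognition molecule of the classical complement pathway that also opsonizes dying cells, rose together. *C1qa* was at 594 and 416 CPM in wild-type and at 1799 and 1027 CPM in *Tut7*-/- cells (1.48, SE 0.27, adjusted p = 0.0012). *C1qc* (1.03, adjusted p = 0.0037) and *C1qb* (0.88, adjusted p = 0.016) rose less, and after the correction neither was called, at 0.28 and 0.12, while *C1qa* was (0.70). *C1qb* also lost its call without wild-type replicate 2 or *Tut7*-/- replicate 1. *Itgax*, which encodes CD11c, part of a complement receptor, was at 26.3 and 26.7 against 81.2 and 66.4 CPM (1.48, SE 0.22, adjusted p = 0.00052) and held at 1.44. *Cd55*, a membrane protein that restrains complement, was lower, at 2.20 and 2.10 against 0.37 and 0.44 CPM (-2.34, adjusted p = 0.0062), and remained called after the correction. In all, 4 of 14 tested complement genes rose (28.6%) and 2 fell (14.3%), against 14.8% and 22.2% of all genes. The counts were the same after the correction, beside 14.6% and 10.4% of all genes.

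Adhesion molecules went in both directions, with 7 of 21 higher and 7 lower (33.3% each), against 14.8% and 22.2% of all genes. Beside *Itgal* and *Itgax*, the beta chain *Itgb5* rose from 245 and 274 to 695 and 522 CPM (1.23, SE 0.22, adjusted p = 0.0011), and *Vcam1* from 0.88 and 0.44 to 4.06 and 4.25 CPM (2.67, SE 0.36, adjusted p = 0.00032). The level of *Vcam1*, a ligand of the integrin VLA-4, was low in both genotypes and did not overlap. *Itga4*, the alpha chain of VLA-4, was at 48.2 and 60.7 against 12.9 and 25.8 CPM (-1.48, SE 0.29, adjusted p = 0.0021), and at -0.03 after the correction. Corrected, 6 members were higher and 3 lower, while 4 rose and 5 fell without wild-type replicate 1 and 7 rose and 4 fell without wild-type replicate 2.

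Markers of stromal cells and fibroblasts, which can persist in marrow cultures, were at low levels and were lower in *Tut7*-/- cells. The 24 genes of the list summed to 138 and 148 CPM in the wild-type and to 54.8 and 55.1 CPM in the *Tut7*-/- libraries, and 2 were at 0 in all 4. Of 19 tested genes 11 fell (57.9%) and none rose, against 22.2% and 14.8% of all genes. The median was -1.21, and the counts were the same after the correction, with a median of -1.39. Of all genes 10.4% were lower and 14.6% higher after the correction. *Acta2*, smooth muscle actin, was at 24.6 and 21.6 against 4.79 and 5.23 CPM (-2.20, SE 0.27, adjusted p = 0.00025), and *Col1a1*, a chain of type I collagen, was at 15.5 and 23.1 against 5.78 and 7.62 CPM (-1.52, SE 0.31, adjusted p = 0.0024). *Bgn* (-1.72), *Tagln* (-2.11) and *Col1a2* (-1.21) moved with them, and all 5 were called in each of the 19 alternatives. A smaller number of stromal cells and less RNA per cell cannot be told apart in bulk libraries, and their part in other results was not tested. *Csf1*, which was lower in the *Tut7*-/- libraries, is also expressed by stromal cells, and their part in that value was not tested. The number of lower stromal genes was 7 without wild-type replicate 1.

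Of 18 tested genes of inflammasomes, pyroptosis and necroptosis 10 fell (55.6%) and none rose, against 22.2% and 14.8% of all genes. The median was -0.94, and after the correction 6 were lower and 1 higher, where 10.4% and 14.6% of all genes were. The sensors led this group. *Nlrp1b*, the sensor of anthrax lethal toxin, was at 64.4 and 75.1 CPM in wild-type and at 5.65 and 17.0 CPM in *Tut7*-/- cells, 6.05-fold lower (-2.60, SE 0.37, adjusted p = 0.00042), and at -2.35 after the correction. *Aim2*, the DNA sensor, was at 22.4 and 17.5 against 2.83 and 8.41 CPM (-1.78, SE 0.35, adjusted p = 0.002). The flagellin sensor *Naip5* was at 33.1 and 41.5 against 4.06 and 15 CPM (-1.94, adjusted p = 0.0023), and its close paralogue *Naip6* fell alongside (-1.95), although reads may not separate these near-identical genes. *Casp8*, an apoptotic caspase, was lower by -1.45 and not called without wild-type replicate 1, and *Casp1*, which matures IL-1β, was at 71.7 and 48.2 against 35.8 and 28.7 CPM (-0.90, adjusted p = 0.01), was not called without that library either, and was at -0.07 after the correction. *Nlrp3* (-0.04), *Pycard* (0.38) and *Gsdmd* (0.24) were not called, although *Pycard*, the adaptor ASC, was called higher after the correction (0.88). The number of lower genes was 4 without wild-type replicate 1.

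Receptors and signalling proteins of the TLR pathways were split, with 7 of 29 tested genes higher (24.1%) and 8 lower (27.6%), against 14.8% and 22.2% of all genes. After the correction 2 were higher and 1 lower, where 14.6% and 10.4% of all genes were called. The endosomal receptors *Tlr7* (-1.13), *Tlr8* (-0.92), *Tlr13* (-0.92) and *Tlr3* (-1.19) were lower, *Tlr7* at 87.5 and 78.4 against 37.1 and 38.5 CPM (SE 0.21, adjusted p = 0.0017), but the corrected values of the 4 genes lay between -0.05 and 0.34 and none was called. *Ly96*, which encodes the MD-2 subunit of the LPS receptor, was at 10.3 and 6.84 against 2.70 and 3.37 CPM (-1.48, adjusted p = 0.0037), with an adjusted p of 0.053 after the correction. *Tlr4* itself was not called (-0.56) and was called higher after the correction (0.99), and *Cd14*, a co-receptor for LPS, rose (0.77). Interferon-induced genes were split as well, 10 of 41 higher (24.4%) and 14 lower (34.1%), against 14.8% and 22.2% of all genes, and 10 and 7 after the correction. *Ifi44* was at 6.93 and 5.61 against 0.98 and 1.86 CPM (-2.07, SE 0.33, adjusted p = 0.00061), *Slfn5* at 126 and 146 against 15.1 and 54.2 CPM (-1.96, adjusted p = 0.0026) and *Parp14* at 137 and 145 against 29.5 and 67.5 CPM (-1.53, adjusted p = 0.0022). These 3 remained called after the correction, whereas *Ifit2* (-1.39) and *Trim30a* (-1.27) did not, at -0.36 and -0.18. The TLR list had 1 higher and 6 lower without wild-type replicate 1, and 4 and 6 without wild-type replicate 2. In the interferon list 4 rose and 10 fell without wild-type replicate 1, 4 and 9 without wild-type replicate 2, and 4 and 13 without *Tut7*-/- replicate 1.

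Of 25 tested cytokine genes 2 rose (8%) and 3 fell (12%), smaller shares than the 14.8% and 22.2% of all genes. The counts were the same after the correction, where 14.6% and 10.4% of all genes were called. *Tnfsf10*, which encodes the death ligand TRAIL, was at 1.65 and 1.58 CPM in wild-type and at 0.12 and 0.18 CPM in *Tut7*-/- cells (-3.25, SE 0.56, adjusted p = 0.00094). Of 24 chemokine genes 4 rose and 5 fell, near the shares of all genes (14.8% and 22.2%), and 4 and 2 did after the correction. The counts were 2 and 1 without wild-type replicate 1, 1 and 3 without wild-type replicate 2, 1 and 4 without *Tut7*-/- replicate 1 and 1 and 1 in the 4 untreated libraries alone. *Cxcl14* was at 2.86 and 3.24 against 16.8 and 10.8 CPM (2.16, SE 0.42, adjusted p = 0.002), and *Ccl6*, a macrophage chemokine, at 207 and 176 against 381 and 245 CPM (0.71, adjusted p = 0.029), which passed in 7 of 19 alternatives and not without any 1 of wild-type replicate 1, wild-type replicate 2 and *Tut7*-/- replicate 1. *Fpr2*, a formyl peptide receptor, rose by 1.11 and passed in 12, not without either wild-type library or *Tut7*-/- replicate 1. *Tnf* (0.06) was not called.

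Of 34 genes of the unfolded protein response, the ATF4 response and chaperones 9 fell and 4 rose, against 22.2% and 14.8% of all genes. The median was 0.19. After the correction 8 fell and 2 rose, against 10.4% and 14.6% of all genes, with a median of -0.12 for the list. The 5 members with the lowest p, *Hsp90b1*, *Canx*, *Hspa5*, *Pdia3* and *Dnajb9*, are chaperones or folding factors of the endoplasmic reticulum, and they were lower. *Hsp90b1*, which encodes GRP94, the chaperone of TLRs and integrins, was at 388 and 263 CPM in wild-type and at 83.0 and 92.5 CPM in *Tut7*-/- cells, 3.71-fold lower (-1.89, SE 0.24, adjusted p = 0.00025). *Hspa5*, which encodes BiP, was at 757 and 649 against 230 and 363 CPM (-1.25, SE 0.23, adjusted p = 0.0015). *Canx*, calnexin, was at 294 and 245 against 73.9 and 106 CPM (-1.58, SE 0.24, adjusted p = 0.0005), and *Pdia3*, a disulfide isomerase, at 507 and 401 against 148 and 237 CPM (-1.24, SE 0.24, adjusted p = 0.002). These 4 genes were called in all 19 alternatives, with -0.99, -0.74, -0.53 and -0.91 after the correction. *Dnajb9* (-1.39) lost its call there. The transcription factors of the response, *Xbp1* (0.37), *Atf4* (0.10) and *Ddit3* (-0.23), were not called. The number of lower members was 5 without wild-type replicate 1.

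Of 25 tested genes of glycolysis and hypoxia 12 rose (48%) and 3 fell (12%), against 14.8% and 22.2% of all genes. The counts were 5 and 2 after the correction, where 14.6% and 10.4% of all genes were called. Without TMM scaling they were 2 and 4, beside 322 and 2980 of all 11501 tested genes. The number that rose was 2 without wild-type replicate 1, 2 without wild-type replicate 2 and 4 without *Tut7*-/- replicate 1. The members that fell included *Hif1a*, the hypoxia-inducible transcription factor, at 52.6 and 43.7 against 10.9 and 17.4 CPM (-1.75, SE 0.25, adjusted p = 0.00043), and *Vegfa*, its angiogenic target, at 67.3 and 74.6 against 16.0 and 28.0 CPM (-1.68, SE 0.31, adjusted p = 0.0013). Both remained called after the correction, at -0.61 and -1.74. In a separate list of iron handling and metallothioneins 4 of 16 tested genes rose (25%) and 5 fell (31.3%), against 14.8% and 22.2% of all genes. After the correction 4 were higher and 2 lower, where 14.6% and 10.4% of all genes were. Its member *Cp*, the ferroxidase ceruloplasmin, fell by 3.02 on the log2 scale, from 6.27 and 4.82 to 0.49 and 0.80 CPM (SE 0.36, adjusted p = 0.00025).

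Of 60 genes of DNA replication and mitosis 15 rose (25%) and 8 fell (13.3%), against 14.8% and 22.2% of all genes. The counts were 15 and 1 after the correction, where 14.6% and 10.4% of all genes were called. Without TMM scaling they were 5 and 11, beside 322 and 2980 of all 11501 tested genes. The replicative helicase genes *Mcm5*, at 24.5 and 26.6 against 88.4 and 52.4 CPM (1.46, SE 0.27, adjusted p = 0.0015), and *Mcm3*, at 25.5 and 29.9 against 63.2 and 56.1 CPM (1.10, SE 0.24, adjusted p = 0.0033), rose, as did the mitotic kinase *Plk1* (1.27). The mitotic kinesins *Kif11* (-1.81) and *Kif23* (-1.63) fell, *Kif11* not after the correction. The list had 4 higher and 2 lower without wild-type replicate 1, 7 and 7 without wild-type replicate 2 and 8 and 5 without *Tut7*-/- replicate 1. Of 79 cytosolic ribosomal protein genes 11 rose and none fell, a share of higher genes no larger than the 14.8% of all tested genes. Of 58 respiratory chain genes 14 rose (24.1%) and 1 fell (1.72%), against 14.8% and 22.2% of all genes. The median was 0.59 in both lists. After the correction 14 ribosomal genes were higher and 4 lower, with a median of 0.15, and 17 respiratory chain genes were higher and 2 lower, with a median of 0.28. Of all genes 14.6% were then higher and 10.4% lower. Without TMM scaling no ribosomal gene was called. These counts depended on single libraries. The number of ribosomal genes that rose was 14 without wild-type replicate 1, 0 without wild-type replicate 2, 0 without *Tut7*-/- replicate 1 and 71 without *Tut7*-/- replicate 2. That of the respiratory chain was 8, 0, 2 and 47 in the same order. The ribosomal list summed to 37909 and 24043 CPM in the wild-type and to 60628 and 31437 CPM in the *Tut7*-/- libraries, so that its ranges overlapped.

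**Figure D4:**
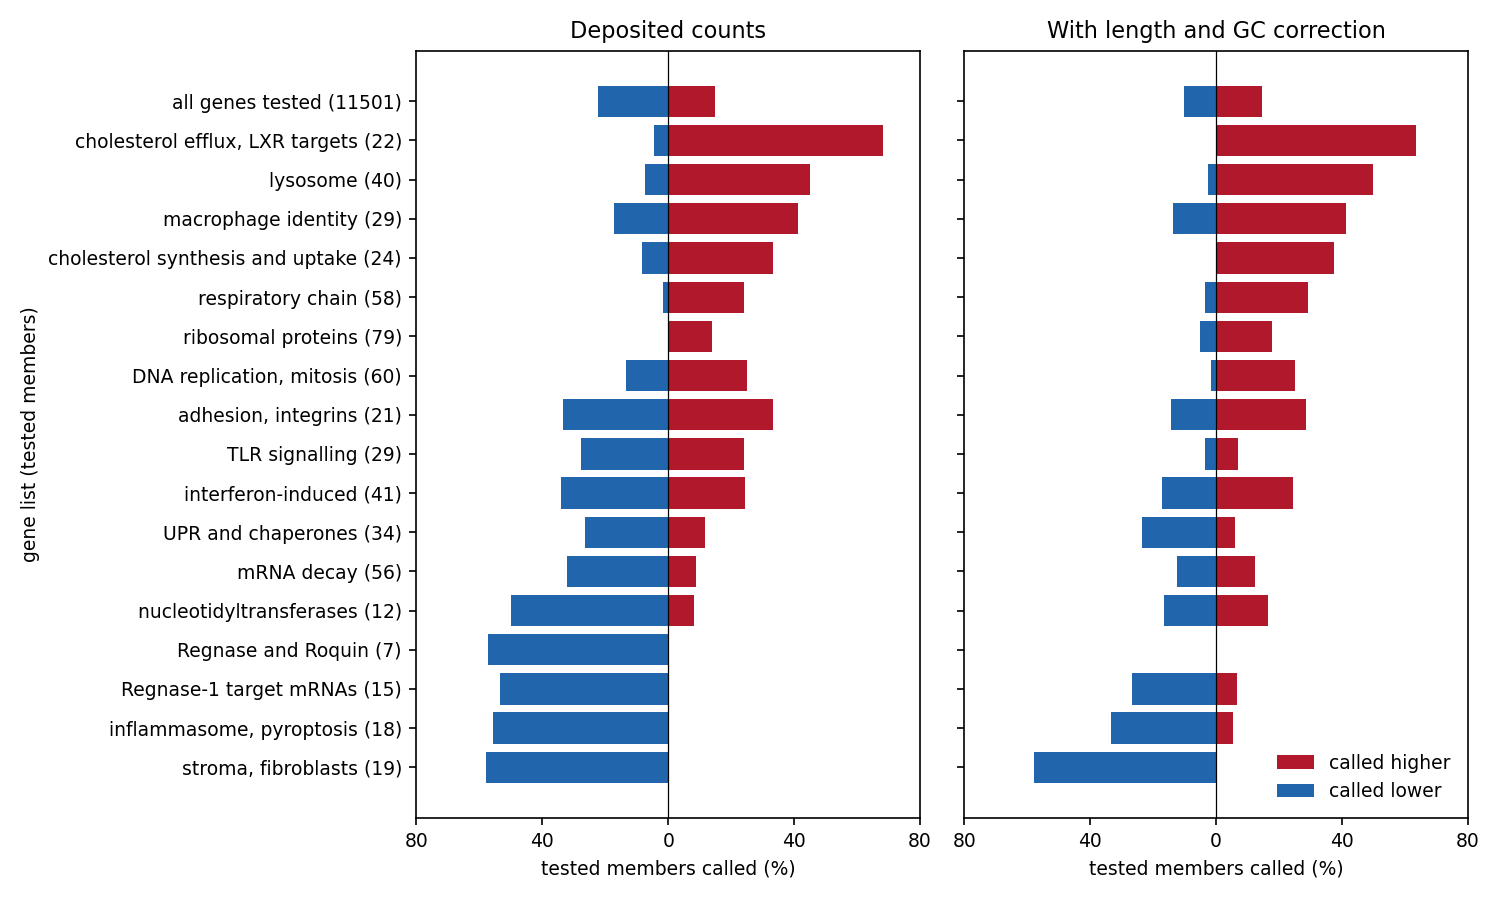
Share of the tested members (%) of each gene list called higher (red, to the right) and lower (blue, to the left) in untreated *Tut7*-/- BMDMs, from the deposited counts (left panel) and with the correction for length and GC content (right panel), with the number tested in brackets. The LXR list (15 of 22 higher, then 14) and the stromal list (11 of 19 lower in both) keep their shares, while the Regnase and Roquin list goes from 4 of 7 lower to none.

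The LPS-treated libraries give a second set of genotype differences that shares no library with the untreated one, although 1 model estimated the spread of both. There 161 genes (1.4%) were called, 72 higher (0.626%) and 89 lower (0.774%). Of the 1707 genes higher without LPS, 84.9% had a fold change above 0 with LPS, against 60.0% of all tested genes, and of the 2552 lower genes 67.0% were below 0, against 39.7%. The genes called in the same direction in both were 35 higher and 51 lower, which are 48.6% and 57.3% of the LPS calls and 2.05% and 2.0% of the untreated calls. These add up to 86 genes, a count that single libraries moved. It was 45 without untreated wild-type replicate 1, 336 without untreated *Tut7*-/- replicate 1 and 445 without untreated *Tut7*-/- replicate 2. Of the LPS-treated libraries, leaving out the first or the other wild-type one gave 5 and 7, and leaving out the first or the other *Tut7*-/- one gave 18 and 7.

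All 14 described genes with the largest rise were also above 0 with LPS, at a median of 1.26 against 1.82 without it, and 6 of them were called there, *Mfge8* (1.60, adjusted p = 0.0032), *Folr2* (1.41, adjusted p = 0.012), *Fabp5* (1.20), *Cmklr1* (1.95), *B430306N03Rik* (1.56) and *Aldh1l1* (1.23). *Mfge8* was at 65.5 and 83.2 CPM in the wild-type and at 211 and 238 CPM in the *Tut7*-/- libraries with LPS. Of the 15 with the largest fall all were below 0, at a median of -0.67 against -2.89, and 3 were called, *Zcchc6* (-6.48, adjusted p = 2.2e-09), *Ccr2* (-1.18, adjusted p = 0.037) and *Adgre4* (-1.68, adjusted p = 0.008). The genes described above for RNA processing fell less with LPS than without it. *Pnisr* was at -0.32, with 34.2 and 34.1 against 29.6 and 25.3 CPM. *Pnn* was at -0.20, *Hnrnph1* at -0.43 and *Srek1* at -0.69.

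Among the lists, the stromal genes were again lower, 8 of 19 against 0.774% of all genes, with a median of -1.71. *Acta2* was at -3.48 (adjusted p = 3.2e-05) and *Col1a1* at -2.53 (adjusted p = 0.0022). The LXR list had 2 of 22 higher, against 0.626% of all genes, and none lower, with a median of 0.29. The lysosomal list had no call and a median of 0.28, and the inflammasome list no call and a median of -0.01. The median of all genes was 0.10. The difference between the genotype effects without and with LPS was itself called for 517 genes (4.5%), 50 positive (0.435%) and 467 negative (4.06%). Of the 517, 36 were called higher and 450 lower without LPS, against 14.8% and 22.2% of all genes. Both measures use the untreated libraries. The difference was 3.18 for *Vcam1* (adjusted p = 0.0055), which was at 282 and 261 against 196 and 187 CPM with LPS. The count of 517 also moved with single libraries. It was 2 without untreated wild-type replicate 1, 137 without untreated wild-type replicate 2, 805 without untreated *Tut7*-/- replicate 1 and 3483 without untreated *Tut7*-/- replicate 2. Leaving out either LPS-treated wild-type library left 1 gene, and leaving out the first or the other LPS-treated *Tut7*-/- library left 3 and 72.

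**Figure D5:**
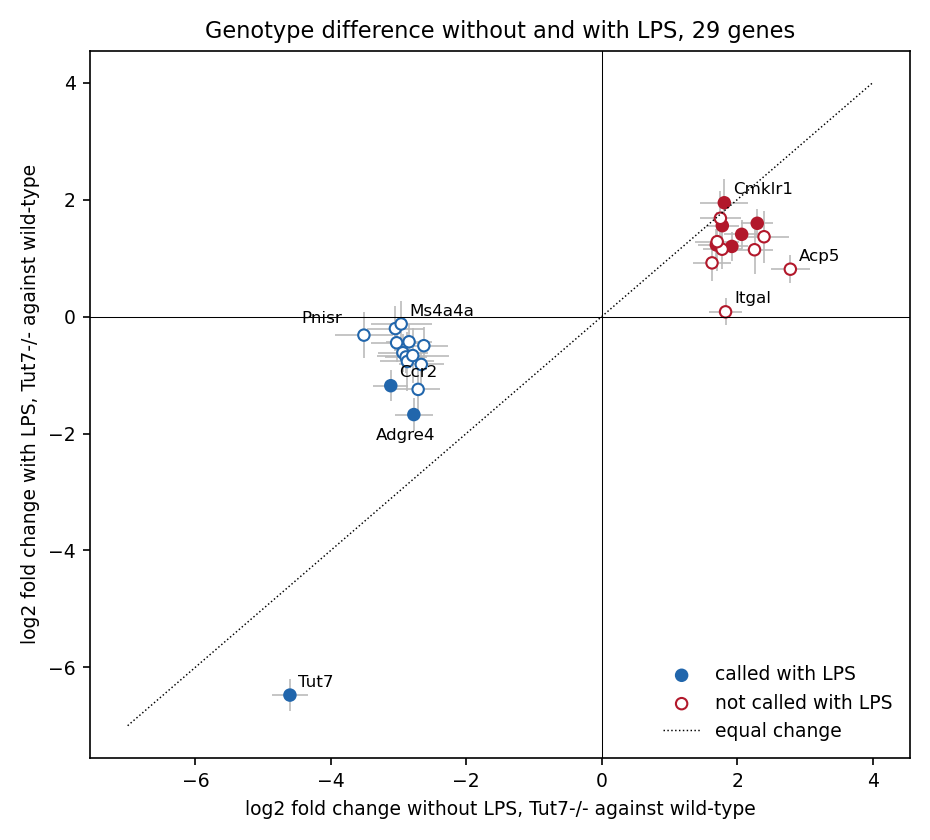
Log2 fold change of *Tut7*-/- against wild-type without LPS (horizontal) and with LPS (vertical) for 14 genes with the largest rise (red) and the 15 with the largest fall (blue), with bars of 1 SE. Filled points were called with LPS, 6 red and 3 blue, and the blue points other than *Tut7* lie between -1.68 and -0.13 on the vertical axis.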

How the data were processed

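Per the study's methods, poly(A) RNA was read from both ends, and the authors aligned the reads to the RefSeq mouse transcripts (mm10) and counted them with FANSe3, whose version the sources used here do not give. The deposited values are raw read counts and RPKM, which the authors scaled for transcript length and depth. The submitters' processing notes also name edgeR.

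The counts of all 8 libraries entered 1 robust quasi-likelihood fit of 4 groups in edgeR 4.0.16 (R 4.3.3; filterByExpr, TMM, 4 residual degrees of freedom, biological coefficient of variation 18.5%), tested on simulated data. The correction covered 11436 genes and used splines with 5 degrees of freedom. GC content came from GENCODE transcripts, and length was estimated from the deposited counts and RPKM. Alternatives were limma 3.58.1 on log2(RPKM + 1) and log2(RPKM + 0.1), which understates folds of low genes, DESeq2 1.42.0, other scalings and filters, the 4 untreated libraries with edgeR's quasi-likelihood and exact tests, a replicate block, and leaving out each library, which takes the spread of a lone library from the other groups. Leaving out LPS-treated libraries, and the alternatives of the difference between genotype effects, were added after seeing the data.

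Named genes are *Zcchc6* and its neighbours, the nucleotidyltransferase and Regnase genes, the 15 largest changes each way and up to 6 called members of each of 42 lists by lowest p. Some genes that this rule names are not reported here. Further list members were named after their values were seen. Comparison and lists were chosen with earlier results of these data known. Python 3.11.15 and matplotlib 3.10.9 drew the figures.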

Additional observations from a re-analysis of the deposited data

Results flagged for a closer look

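The difference between the genotype effects without and with LPS (the first minus the second, log2 scale) passed an adjusted p under 0.05 in edgeR's quasi-likelihood test for 29 genes named here. It was positive for *Vcam1* (3.18), *Acp5* (1.97), *Zcchc6* (1.87), *Itgal* (1.75) and *Srebf2* (1.20). *Zcchc6* was nearly absent from the *Tut7*-/- libraries with and without LPS, while its wild-type level was 47.0 and 53.9 CPM without and 253 and 235 CPM with LPS. *Itgal* was at 775 and 816 against 794 and 891 CPM with LPS, so that the genotypes differed without it and overlapped with it.

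The difference was negative for genes of RNA processing and decay, *Pnisr* (-3.19), *Pnn* (-2.84), *Hnrnph1* (-2.41), *Srek1* (-2.20), *Tia1* (-2.17), *Smg1* (-2.16), *Zc3h7a* (-2.13) and *Papola* (-1.27). It was negative for the membrane proteins *Ms4a4a* (-2.84), *Ccr2* (-1.93), *Mrc1* (-1.89), *Tlr13* (-1.33) and *Cd36* (-1.29). It was also negative for *Tnfsf10* (-3.11), *Cp* (-2.59), *Paxbp1* (-2.58), *Kif11* (-2.46), *Mdm4* (-2.32), *Nlrp1b* (-2.07), *Maf* (-1.87), *Impact* (-1.85), *Ifi44* (-1.79), *Ifit2* (-1.29) and *Atp6v1a* (-1.12). *Vcam1* passed in 15 of 17 alternatives and the others in 7 to 13, and none of these was weighed for a cause.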

How the results depend on the processing

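Of 118 named genes called without LPS, 77 were called in all 19 alternatives, 29 lost their call with the length and GC correction, 16 without wild-type replicate 1, 9 in the 4 untreated libraries and 7 with library size only. With the correction the sign turned for *Zcchc11* (0.72), *Fam46a* (0.017), *Zc3h12a* (-0.15) and *Tlr8* (0.34). *Isca1* turned to -0.045 with library size only, -0.096 with limma on log2(RPKM + 0.1) and -0.093 with limma on log2(RPKM + 1). The 4259 genes called without LPS became 2591 in the 4 untreated libraries and 2349 with an absolute log2 fold change over 1, and ranged from 1739 to 6350 when 1 library was left out. With DESeq2's size factors 2124 rose and 2439 fell, with limma on log2(RPKM + 0.1) 252 and 3273, with limma on log2(RPKM + 1) 372 and 3633, and with the correction 58.5% of the calls were higher against 40.1%. The 337 called list members became 171 in the 4 libraries and 194 with edgeR's exact test, and ranged from 172 to 560 with 1 library left out. The 86 genes called in the same direction with LPS became 628 in fits of 4 libraries, 737 with the exact test, 227 with the correction, 200 without a filter, 149 with DESeq2, 45 with limma on log2(RPKM + 0.1) and 40 with library size only, and ranged from 5 to 445 with 1 library left out. The 517 differences between the genotype effects became 241 with DESeq2's size factors, 1325 with limma on log2(RPKM + 1) and 1355 without a filter, and ranged from 1 to 3483. The causes were not tested. The replicate numbers were not shown to pair the libraries (r = 0.31 between the deviations of the untreated genotypes), and with a replicate block 4403 genes were called, with no named gene losing its call. The limits are 2 libraries a genotype, a base composition that differs between the genotypes, and *Tut7*-/- replicate 1, which stood apart. Genes with under about 1 CPM, such as *Tnfsf10* and *Cd55* in *Tut7*-/- cells, rest on few counts.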
